A study of Mus musculus with 12 samples.

Results

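Potassium channels that open on a rise of internal calcium or sodium return a neuron to rest after an action potential and limit how often it fires. The gene set described here holds 10 of them, taken by symbol: the calcium- and voltage-activated BK channel (Kcnma1, the pore) with 3 of its beta subunits (Kcnmb1, Kcnmb2, Kcnmb4), the small-conductance SK channels (Kcnn1, Kcnn2, Kcnn3), the intermediate-conductance IK channel (Kcnn4), and the sodium-activated Slack (Kcnt1) and Slick (Kcnt2) channels. All 10 of 10 genes were found among the 41388 genes of the count tables, and all 10 passed the filter on low counts that left 15281 genes for testing.

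RNA had been sequenced from dorsal root ganglion (DRG) neurons of mice, sorted for EGFP, in 12 libraries that form 4 groups of 3: female L6S1, male L6S1, female L345 and male L345. L6S1 stands for the ganglia at spinal levels L6 and S1, and L345 for those at L3, L4 and L5. Mice of all groups were C57BL/6 animals aged 3 months, and all carried the same alleles: a floxed Ret allele followed by EGFP, knocked into one copy of the Ret locus, and NaV1.8-Cre (NaV1.8 is the sodium channel of Scn10a), so that EGFP marks Ret-expressing cells in which Cre had acted. No group lacked these alleles. The genotype label of the 4 libraries of a later submission gives 1 of these alleles only, while their source names give both. Each library was a pool of 2 to 8 mice and 12 to 32 ganglia; the labels of male L345 C disagree, with 5 mice in one place and 3 in the other. The sources used here do not say whether any mouse gave ganglia to pools of both levels.

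BK channels need both depolarization and internal calcium to open, and their beta subunits set how much: beta1, known best from smooth muscle, raises the apparent calcium sensitivity, beta2 closes the channel by fast inactivation, and beta4, the form usual in brain, slows gating and makes the channel resistant to iberiotoxin. SK and IK channels are not gated by voltage and open when calcium binds to calmodulin held on their C terminus, and SK channels carry the afterhyperpolarization that follows spikes. Slack and Slick open on sodium that enters with each spike, and in nociceptors Slack current is known to restrain firing.

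Total counts ran from 16176436 to 26694404 per library, and 3 counts, the floor used here, stood for 0.112 to 0.185 CPM, the count scaled to a common library total. The summed level of 8 sensory neuron markers was 5140 to 6790 CPM in L6S1 libraries and 5350 to 6720 CPM in L345 libraries (8 of 8 tested). Rbfox3, the gene of the neuronal protein NeuN, was the one called and was lower at L6S1 (79.0 CPM at L6S1 and 136 CPM at L345 on average, edgeR adjusted p = 0.0368). Peptidergic markers (5 of 5 tested, Tac1 and Trpv1 called) summed to 9390 to 15200 CPM at L6S1 and 8960 to 9830 CPM at L345. Non-peptidergic markers (5 of 5 tested, Lpar3 called) summed to 1280 to 1750 CPM at L6S1 and 1560 to 2160 CPM at L345. Fibroblast markers (5 of 5 tested, Dcn called) summed to 116 to 303 CPM at L6S1 and 63.4 to 88.4 CPM at L345. Dcn made up nearly all of that sum (211 CPM at L6S1 and 65.0 CPM at L345 on average). Lum, Col1a1 and Col3a1 were higher at L6S1 on average but not called, and Pdgfra was lower (1.43 CPM at L6S1 and 1.75 CPM at L345). Macrophage markers (3 of 6 tested, C1qb called, with C1qa, Cx3cr1 and Adgre1 at 0 in some libraries) summed to 3.68 to 22.4 CPM at L6S1 and 1.94 to 2.7 CPM at L345. The 22.4 CPM was that of female L6S1 C, and the other L6S1 libraries reached 5.41 CPM at most. Endothelial markers (4 of 6 tested, 0 called, with Cldn5 at 0 in some libraries) summed to 17.4 CPM in female L6S1 C. They summed to 1.32 to 4.42 CPM in the other L6S1 libraries and 2.13 to 4.53 CPM at L345. Glial markers (9 of 9 tested, 0 called) summed to 927 to 1930 CPM at L6S1 and 1430 to 1920 CPM at L345. Long transcripts stood lower against short ones in L6S1 libraries (-0.83 to 0.05 on the log2 scale) than in 5 L345 libraries (0.09 to 0.53). The remaining one, female L345 D, stood at -0.21. The later submission held L6S1 libraries B and C of females and C of males and L345 library D of females, and the level of high-GC against low-GC genes was lowest in female L6S1 B (-0.99, log2) and highest in male L6S1 C (0.60). Beyond the fits named with the results, the part of these differences in the channel values was not tested.

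The genes at the ends of the expression range are shown by the sequence before their start. Kcnmb1 was the highest of the 10 per length and Kcnn3 the lowest, and their 250 bases before the RefSeq start site (GRCm38.p6, plus strand) are printed 5′ to 3′ with CpG dinucleotides, written CG and counted once for both strands, in capitals. In both genes the RefSeq start site is also the first base of the gene as counted in the files. The windows are chr11:33962763-33963012 for Kcnmb1 and chr3:89519914-89520163 for Kcnn3.
Kcnmb1: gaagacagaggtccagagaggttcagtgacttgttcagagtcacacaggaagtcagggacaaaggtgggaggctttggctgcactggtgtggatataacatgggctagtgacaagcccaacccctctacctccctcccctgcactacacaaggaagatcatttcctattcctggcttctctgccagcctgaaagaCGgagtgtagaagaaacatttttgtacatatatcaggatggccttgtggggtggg
Kcnn3: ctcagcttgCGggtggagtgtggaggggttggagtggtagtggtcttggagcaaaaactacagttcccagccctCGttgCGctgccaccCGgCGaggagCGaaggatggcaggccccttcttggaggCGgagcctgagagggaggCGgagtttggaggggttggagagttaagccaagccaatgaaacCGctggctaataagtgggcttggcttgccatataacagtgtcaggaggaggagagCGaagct
The Kcnmb1 window holds 1 CpG and 50.8% GC, and 92.1% of the 32851 promoters of the RefSeq table hold at least as many CpGs. The Kcnn3 window holds 10 CpGs and 58.8% GC, a count reached by 37.8% of promoters. Kcnma1, the pore gene that Kcnmb1 serves, has 31 CpGs in the same length, a count reached by 5.19% of promoters, and Kcnmb4 has 43 (0.712% of promoters). For both of these genes the RefSeq start site lies inside the gene as annotated in the files, by 654 bases in Kcnma1 and 355 in Kcnmb4, so their windows may hold transcribed bases. The median promoter of the table holds 6 CpGs and 52.4% GC. The table holds 8 of the 10 genes; Kcnn2 and Kcnt1 are not among them. These counts describe the windows and say nothing of what binds there.

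Levels between genes were compared as RPKM, the CPM per kilobase of gene. Kcnmb1 was the highest of the 10, at 81.1 ± 15.5 RPKM over the 12 libraries (SD, n = 12), above 94.5% of the genes tested, and its range of 54.1 to 111 RPKM did not overlap that of any other member. Kcnmb2 (9.76 ± 3.14 RPKM) and Kcnt1 (9.6 ± 2.55 RPKM) came next and could not be ordered, since each was above the other in 6 of 12 libraries. Kcnn1 followed at 5.22 ± 1.01 RPKM, below Kcnt1 in 12 of 12 libraries, and Kcnma1 at 3.38 ± 0.917 RPKM, below Kcnn1 in 11 of 12, near the middle of the tested genes (51.0% lower). In all 12 libraries the BK pore transcript was less abundant per counted length than those of the beta1 and beta2 subunits. Kcnma1 was counted over 6513 exon bases, while its longest GENCODE M21 transcript has 12094 bases. For Kcnmb1 both lengths are 4191. Reads from bases outside the counted exons are missing, and their part in the Kcnma1 level was not tested.

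Positions on GRCm38.p2 place Kcnmb1 (ENSMUSG00000020155) on chromosome 11 from 33963013 to 33973641, Kcnma1 (ENSMUSG00000063142) on chromosome 14 from 23289431 to 24004859, and Kcnmb2 (ENSMUSG00000037610) on chromosome 3 from 31902507 to 32200180. Kcnt1 (ENSMUSG00000058740) lies on chromosome 2 from 25863795 to 25918273 and Kcnt2 (ENSMUSG00000052726) on chromosome 1 from 140246216 to 140612063. Counts were taken over whole genes, with 4191 exon bases in Kcnmb1, 6513 in Kcnma1, 3128 in Kcnmb2, 7528 in Kcnt1 and 6276 in Kcnt2, so isoforms were not told apart.

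The other 5 genes averaged 1.22 RPKM or less. Kcnn4 had 1.22 ± 0.441 RPKM and Kcnt2 0.956 ± 0.462 RPKM, in that order in 7 of 12 libraries only. Kcnn2 had 0.536 ± 0.134 RPKM, below Kcnt2 in 9 of 12 libraries. Kcnmb4, the beta subunit usual in brain, had 0.303 ± 0.0682 RPKM and Kcnn3 0.158 ± 0.0401 RPKM, above 11.7% and 5.57% of the tested genes. Kcnmb4 rested on 16 to 35 reads per library and Kcnn3 on 13 to 39, all above the floor of 3 counts.

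**Figure D1:**
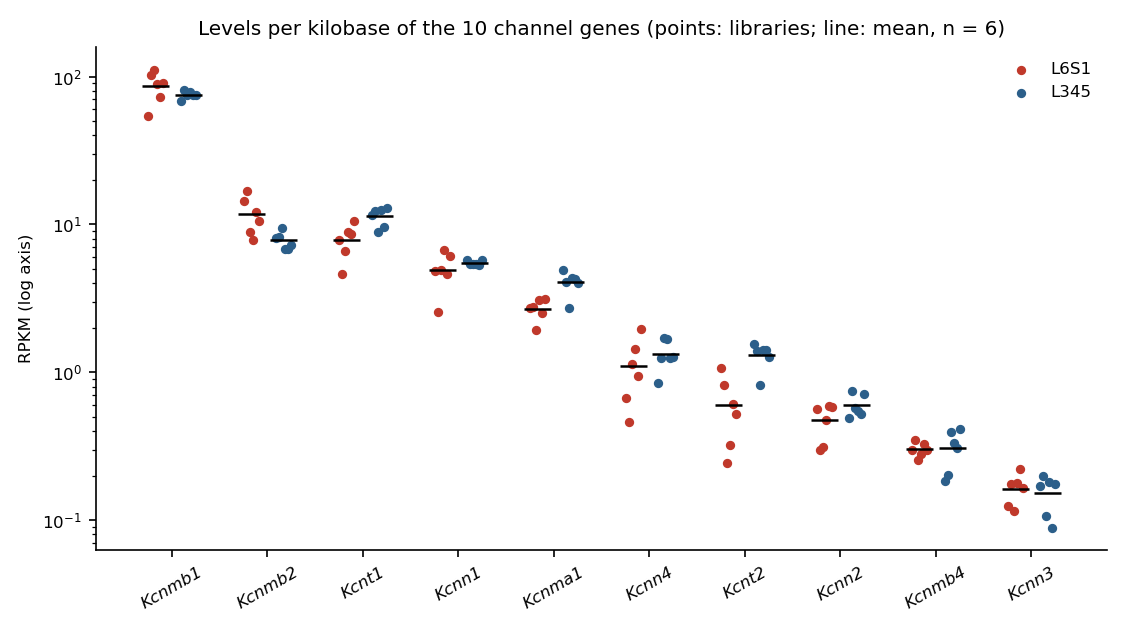
RPKM (vertical log axis) of the 10 genes in each library, L6S1 (red) left of L345 (blue) for each gene, with the mean of 6 libraries as a line. Kcnmb1 sits above every other gene, at 54.1 to 111 RPKM, and Kcnn3 lies lowest, at 0.089 to 0.221 RPKM.

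The study compared L6S1 ganglia, among whose neurons are those of the pelvic organs, with L345 ganglia, whose neurons mostly supply the hindlimb. The largest differences among the channel genes lay in Kcnt2, Kcnmb2, Kcnma1 and Kcnt1, with log2 fold changes (L6S1 over L345) of -1.14 to 0.61, and none of the 10 genes passed the test. With edgeR's quasi-likelihood F-test and Benjamini-Hochberg adjustment over 15281 genes, 0 of 10 members were called at an adjusted p under 0.05, beside 2.33% of all genes (356; 222 higher and 134 lower at L6S1). At an unadjusted p under 0.05 there were 4 members of 10, beside 26.6% of all genes. DESeq2 and limma-voom with sample quality weights called 4 members each, the same 4, beside 9.93% and 21.4% of all genes. The ranges of the 6 L6S1 and the 6 L345 libraries overlapped for all 10 genes, and did not overlap for 3.24% of all genes. The median log2 fold change was -0.23 over the 10 members (4 above and 6 below 0) and -0.06 over all genes tested.

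**Figure D2:**
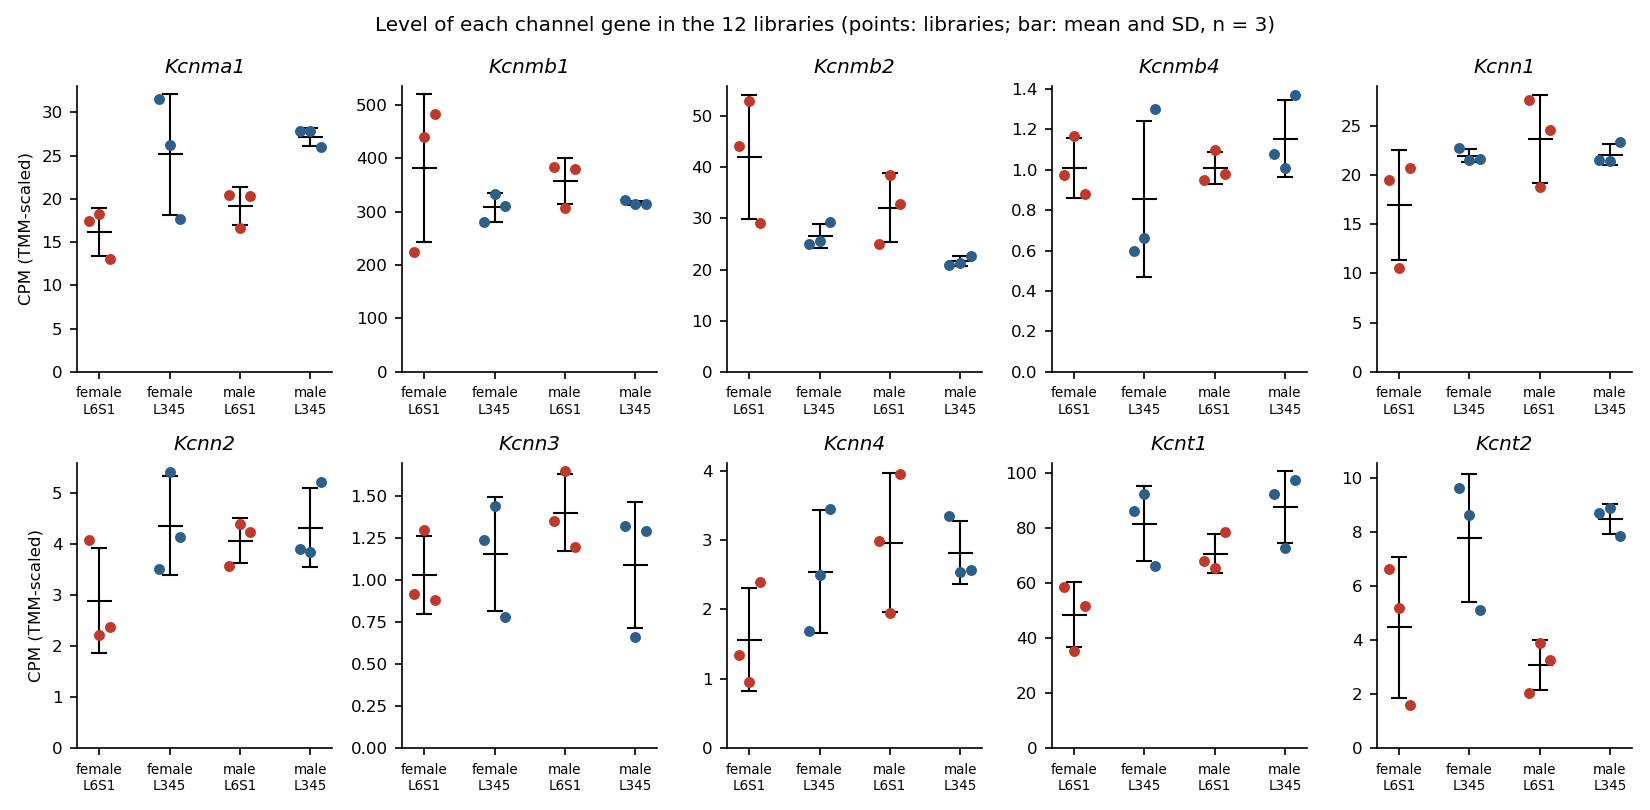
TMM-scaled CPM (vertical axis, from 0) of each gene in the 12 libraries by sex and level, L6S1 (red) left of L345 (blue) within each sex; points are libraries and bars give the mean and SD of 3. For Kcnt2, Kcnt1 and Kcnma1 the L6S1 points lie mostly below the L345 points and for Kcnmb2 mostly above, and in each case some points overlap.

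Kcnma1 encodes the pore of the BK channel. It had 17.4, 18.2 and 13.0 CPM in female L6S1 libraries and 20.5, 16.6 and 20.3 CPM in male L6S1 libraries, against 31.5, 26.2 and 17.7 CPM in female L345 libraries and 27.8, 27.8 and 26.0 CPM in male L345 libraries. Against the L345 average of the same sex, 6 of 6 L6S1 libraries were lower, and 3 of them lay inside the L345 range, whose low end was female L345 D. The means were 17.7 ± 2.75 CPM at L6S1 and 26.2 ± 4.59 CPM at L345 (SD, n = 6 each), or -0.57 ± 0.15 as log2 fold change (SE; edgeR adjusted p = 0.0611). Without female L345 D the gene passed (-0.67, edgeR adjusted p = 0.0248), where 5.84% of all genes were called. It also passed without female L6S1 A (-0.60, 0.0163), where 26.5% were called. These were the only 2 calls in 12 fits with one library left out. With a term for the later submission the gene did not pass (-0.48, edgeR adjusted p = 0.183). With offsets for GC content and transcript length the log2 fold change was -0.27 (edgeR adjusted p = 0.168). Those offsets took the longest transcript of Kcnma1, 12094 bases, while its reads were counted over 6513. Whether they corrected this gene too far was not tested. In whole sorted populations a difference between levels cannot tell fewer cells of a type from less RNA per cell.

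Kcnmb1, the beta1 subunit, had 224, 439 and 483 CPM in female L6S1 libraries and 384, 307 and 379 CPM in male L6S1 libraries, against 280, 334 and 311 CPM in female L345 libraries and 321, 314 and 315 CPM in male L345 libraries. The L345 libraries lay close together, and the L6S1 libraries reached both below and above them, with female L6S1 A the lowest of all 12. Over all genes, too, libraries differed most within female L6S1, with a chi-square of 108.5 to 127.7 per degree of freedom between pairs. Pairs within the other groups had 9.8 to 55.9. Kcnmb1 averaged 369 ± 92.9 CPM at L6S1 and 313 ± 17.9 CPM at L345, which is 0.24 ± 0.16 on the log2 scale (edgeR adjusted p = 0.337). The direction depended on which female L6S1 libraries were kept. It was 0.38 without female L6S1 A (edgeR adjusted p = 0.0139), where 26.5% of all genes were called. It was -0.15 without female L6S1 B and C, and -0.17 in the 8 libraries of the first submission. Both of the last fits keep 1 female L6S1 library, A, whose spread is assumed to be that of the other groups. Beta1 is known from smooth muscle, and the summed level of 6 smooth muscle and pericyte markers (3 of 6 tested, 0 called) was 207 to 407 CPM at L6S1 and 198 to 307 CPM at L345. Rgs5 made up nearly all of it (283 CPM at L6S1 and 247 CPM at L345 on average), so the sum does not show the other markers. Acta2 ran from 0.0838 to 10.5 CPM and Tagln from 0.354 to 9.44 CPM, and Myh11 and Des had 0 counts in some libraries. Acta2, Tagln, Myh11, Cnn1 and Des were all highest in female L6S1 C, the library with the most Kcnmb1, where the sum was 235 CPM. Their part in the Kcnmb1 level was not tested. Kcnmb1 lies within the Kcnip1 locus on the opposite strand and shares 0 exon bases with it.

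Kcnmb2 encodes the inactivating beta2 subunit. It had 44.2, 53.0 and 29.0 CPM in female L6S1 libraries and 25.0, 38.4 and 32.8 CPM in male L6S1 libraries, against 24.9, 25.5 and 29.3 CPM in female L345 libraries and 20.9, 21.3 and 22.7 CPM in male L345 libraries. Against the L345 average of the same sex, 6 of 6 L6S1 libraries were higher, and 2 of them inside the L345 range. The mean was 37.0 ± 10.3 CPM at L6S1 and 24.1 ± 3.15 CPM at L345 (SD, n = 6 each), or 0.61 ± 0.16 as log2 fold change (edgeR adjusted p = 0.0545). Kcnmb2 was the member whose call was gained most often, in 13 of 23 alternative fits. Of 12 fits with one library left out, 3 gave a call. It passed without female L6S1 A (0.60, edgeR adjusted p = 0.0174), where 26.5% of all genes were called. It also passed without female L6S1 C (0.73, 0.0136, with 1.68% of all genes) and without female L345 D (0.65, 0.0458, with 5.84%). With a term for the later submission Kcnmb2 did not pass (0.60, edgeR adjusted p = 0.123). Its size moved little with the GC and length offsets (0.58, edgeR adjusted p = 0.0244).

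Kcnmb4, the beta4 subunit, averaged 1.01 ± 0.107 CPM at L6S1 and 1.00 ± 0.317 CPM at L345, which is 0.02 ± 0.25 on the log2 scale (edgeR adjusted p = 0.966). Its sign changed in 9 of 23 alternative fits. It shares 693 exon bases with the antisense gene Kcnmb4os2 (104 reads in all libraries, against 285 for Kcnmb4), and since the sources used here do not give the strand setting of the counting, reads of the pair cannot be told apart.

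The balance of beta subunit to pore followed from these values and is given without a test. The ratio of Kcnmb2 to Kcnma1 in RPKM was 5.27, 6.06 and 4.64 in female L6S1 libraries and 2.53, 4.81 and 3.37 in male L6S1 libraries, against 1.64, 2.02 and 3.45 in female L345 libraries and 1.57, 1.60 and 1.81 in male L345 libraries. All 6 L6S1 libraries were above the same-sex L345 average, and the ranges overlapped through female L345 D. The ratio of Kcnmb1 to Kcnma1 had a median of 29.1 (19.9 to 57.6) at L6S1 and 18.4 (13.8 to 27.3) at L345. For Kcnmb4 to Kcnma1 the median was 0.118 (0.091 to 0.132) at L6S1 and 0.074 (0.0373 to 0.144) at L345. The longest transcript has 12094 bases for Kcnma1, 4191 for Kcnmb1, 2919 for Kcnmb2 and 1626 for Kcnmb4. Long transcripts stood lower against short ones at L6S1 and in female L345 D (-0.21, log2) than in the other L345 libraries. The ratios were not corrected for this, and its part in them was not tested.

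**Figure D3:**
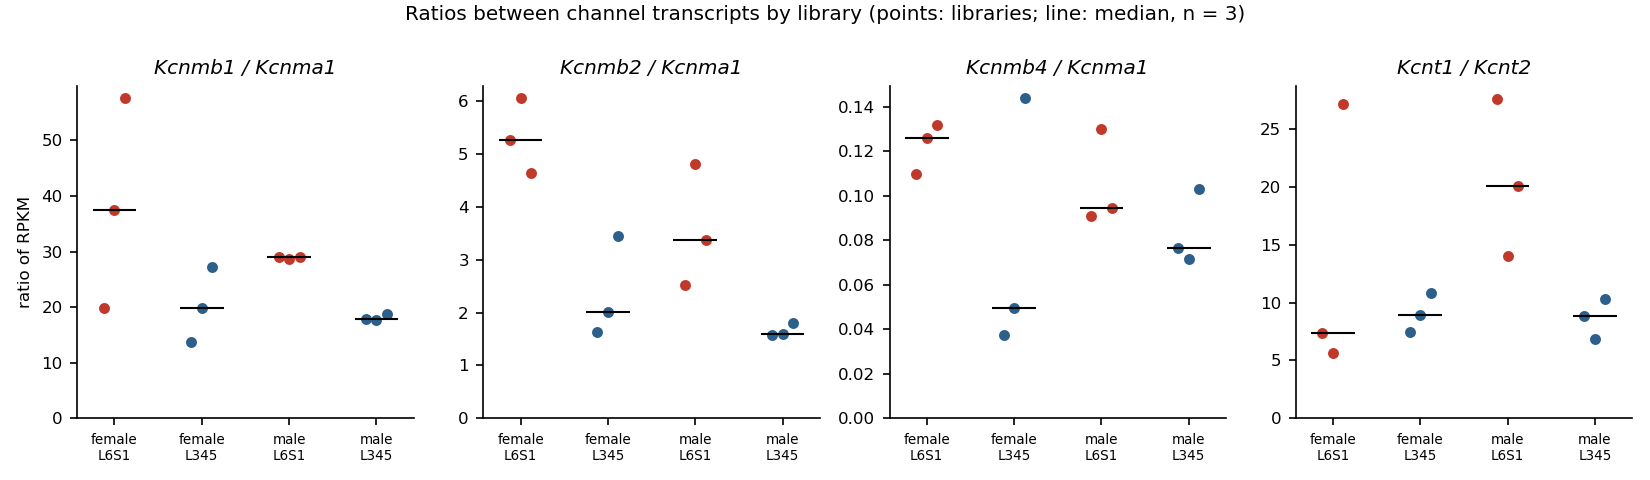
RPKM ratios (vertical axes, from 0) of each beta subunit gene to the pore gene Kcnma1, and of Kcnt1 to Kcnt2, by library, with the L6S1 libraries (red) left of the L345 libraries (blue) of the same sex and the median of 3 as a line. The Kcnmb2 to Kcnma1 ratio is 2.53 to 6.06 in L6S1 libraries and 1.57 to 2.02 in L345 libraries other than female L345 D, which stands at 3.45.

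None of the SK and IK genes passed the test between levels. Kcnn1 (SK1) had 19.5, 10.5 and 20.7 CPM in female L6S1 libraries and 27.6, 18.8 and 24.6 CPM in male L6S1 libraries, while the 6 L345 libraries lay between 21.4 and 23.3 CPM. None of the L6S1 libraries lay inside that narrow range: 4 were below it and 2 above it. The share of all genes with this pattern was not counted. The log2 fold change was -0.14 ± 0.17 (edgeR adjusted p = 0.597). Kcnn2 (SK2) averaged 3.48 ± 0.959 CPM at L6S1 and 4.35 ± 0.786 CPM at L345, with 5 of 6 L6S1 libraries under the same-sex L345 average. The log2 difference was -0.35 ± 0.20 (edgeR adjusted p = 0.264). Without female L6S1 A the gene stood at -0.51 (edgeR adjusted p = 0.0497), where 26.5% of all genes were called. It shares 284 exon bases with the antisense gene A330093E20Rik, which has 185 reads against 1116 for Kcnn2.

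Kcnn3 (SK3) averaged 1.22 ± 0.289 CPM at L6S1 and 1.12 ± 0.321 CPM at L345 (log2 fold change 0.10 ± 0.26, edgeR adjusted p = 0.817), and its sign changed in 5 of 23 alternative fits. Kcnn4, the IK channel of red blood cells and activated T cells, averaged 2.26 ± 1.10 CPM at L6S1 and 2.68 ± 0.647 CPM at L345 (-0.31 ± 0.27, edgeR adjusted p = 0.455). Red blood cell markers summed to 0.737 to 3.03 CPM at L6S1 and 0.955 to 4.24 CPM at L345 (2 of 5 tested, 0 called, with Hbb-bt and Hba-a1 at 0 in some libraries). T cell markers summed to 8.38 to 14.3 CPM at L6S1 and 4.35 to 6.22 CPM at L345 (2 of 5 tested, Trac called). Lck (6.14 CPM at L6S1 and 3.97 CPM at L345 on average) and Trac (3.96 CPM at L6S1 and 0.859 CPM at L345) made up nearly all of that sum. Cd3e and Cd3g had 0 to 3 reads per library, and Cd2 was lower at L6S1 (0.131 CPM, and 0.197 CPM at L345). The part of red blood cells and T cells in Kcnn4 counts was not tested. Of the summed RPKM of the 4 genes, Kcnn1 made up a median of 74.6% (69.3 to 78.2%) in L6S1 libraries and 71.9% (69.2 to 79.1%) in L345 libraries. Kcnn4 made up a median of 15.6% at L6S1 and 16.9% at L345, Kcnn2 7.59% at L6S1 and 7.36% at L345, and Kcnn3 2.03% at L6S1 and 2.26% at L345. SK1 was the most abundant of the 4 transcripts per length in all 12 libraries.

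Kcnt1 encodes Slack. It had 58.5, 35.4 and 51.7 CPM in female L6S1 libraries and 68.2, 65.3 and 78.7 CPM in male L6S1 libraries, against 86.0, 92.5 and 66.2 CPM in female L345 libraries and 92.3, 72.9 and 97.5 CPM in male L345 libraries. None of the 6 L6S1 libraries reached the same-sex L345 average, and 2 of them lay inside the L345 range. The mean was 59.6 ± 15.0 CPM at L6S1 and 84.6 ± 12.4 CPM at L345 (SD, n = 6 each), or -0.53 ± 0.15 as log2 fold change (edgeR adjusted p = 0.0646). It passed without female L6S1 A (-0.61, edgeR adjusted p = 0.008), where 26.5% of all genes were called. The same held without female L345 D (-0.59, 0.0399), where 5.84% were called. These were the only 2 calls in 12 fits with one library left out. Kcnt1 stood at -0.34 with the GC and length offsets (edgeR adjusted p = 0.0562) and at -0.46 with a term for the later submission (0.173).

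Kcnt2, which encodes Slick, showed the widest gap. It had 6.65, 5.21 and 1.59 CPM in female L6S1 libraries and 2.06, 3.89 and 3.27 CPM in male L6S1 libraries, against 9.63, 8.63 and 5.12 CPM in female L345 libraries and 8.72, 8.92 and 7.88 CPM in male L345 libraries. The males did not overlap between levels, while in females 2 L6S1 libraries lay above female L345 D. The share of all genes without overlap in males alone was not counted. The mean was 3.78 ± 1.91 CPM at L6S1 and 8.15 ± 1.59 CPM at L345 (SD, n = 6 each), or -1.14 ± 0.29 as log2 fold change (edgeR adjusted p = 0.0545), on 38 to 257 reads per library. It passed in 10 of 23 alternative fits, and in 3 of the 12 with one library left out. It passed without female L6S1 A (-1.33, edgeR adjusted p = 0.00523), where 26.5% of all genes were called. It also passed without female L6S1 C (-0.92, 0.0357, with 1.68% of all genes) and without female L345 D (-1.25, 0.0357, with 5.84%). With the GC and length offsets it passed as well (-0.96, 0.0192, with 3.99%), but not with a term for the later submission (-0.94, 0.161). The ratio of Kcnt1 to Kcnt2 in RPKM was 7.33, 5.66 and 27.1 in female L6S1 libraries and 27.6, 14.0 and 20.1 in male L6S1 libraries, and 6.81 to 10.8 over the 6 L345 libraries.

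**Figure D4:**
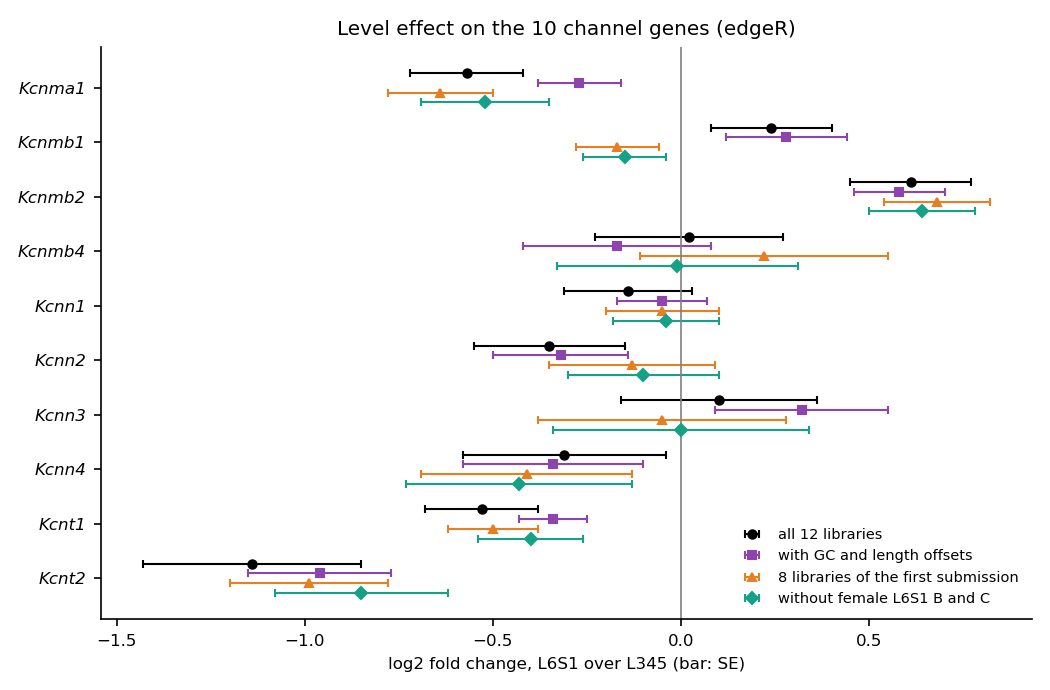
Log2 fold change, L6S1 over L345 (horizontal axis), of the 10 genes with its SE, from edgeR fits of all 12 libraries, with GC and length offsets, of the 8 libraries of the first submission, and without female L6S1 B and C. Kcnt2, Kcnma1 and Kcnt1 lie below 0 and Kcnmb2 above 0 in all 4 fits, while Kcnmb1 stands at 0.24 with all libraries and at -0.17 and -0.15 in the last 2 of these fits.

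Within one sex, 3 libraries faced 3, and no member was called by edgeR: 0 of 10 in females, beside 0.36% of all genes, and 0 of 10 in males, beside 0.222%. At an unadjusted p under 0.05 there were 4 members in females (24.0% of all genes) and 3 in males (8.83%). DESeq2 called 1 member in females (4.91% of all genes) and 1 in males (0.707%), and limma-voom 0 in females (0.34%) and 3 in males (12.2%). Kcnt2 had log2 fold changes of -0.81 ± 0.40 in females (edgeR adjusted p = 0.231) and -1.47 ± 0.41 in males (0.324), and Kcnt1 had -0.75 ± 0.21 in females (0.129) and -0.31 ± 0.20 in males (0.629). Kcnmb2 stood at 0.66 ± 0.22 in females and 0.57 ± 0.22 in males, and Kcnma1 at -0.63 ± 0.22 in females and -0.51 ± 0.22 in males. The test of the difference itself, the female level effect minus the male one, called 0 members and 0.0% of all genes by edgeR, with 0 members at an unadjusted p under 0.05 (4.67% of all genes) and 0 members called by DESeq2 or by limma-voom (0.0131% of all genes in each). Its values ran from -0.77 ± 0.53 for Kcnn4 to 0.66 ± 0.57 for Kcnt2.

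Between the sexes, both levels weighted equally, 0 of 10 members were called by edgeR (0.0589% of all genes), DESeq2 (0.203%) or limma-voom (0.0654%), and 2 had an unadjusted p under 0.05 (5.96% of all genes). Kcnmb2 had a log2 difference, female minus male, of 0.34 ± 0.16 (edgeR adjusted p = 0.764), with means of 42.1 ± 12.1 CPM in female L6S1 and 26.5 ± 2.41 CPM in female L345 libraries, and 32.0 ± 6.74 CPM in male L6S1 and 21.6 ± 0.92 CPM in male L345 libraries (SD, n = 3 each). Kcnt1 had -0.32 ± 0.15 (edgeR adjusted p = 0.764), with 48.5 ± 11.9 CPM in female L6S1 and 81.5 ± 13.7 CPM in female L345 libraries, and 70.7 ± 7.04 CPM in male L6S1 and 87.6 ± 13.0 CPM in male L345 libraries.

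Channels of this kind are opened by ions that other proteins let in, so 4 lists of such genes were read in the same fit. Each is given as counts to be read beside all genes tested. Of those, 2.33% were called and 26.6% had an unadjusted p under 0.05, with a median log2 fold change of -0.06. Across 12828 genes the level fold change fell with transcript length (Spearman's rho -0.46). The lists were not corrected for this, and its part in them was not tested. Of 16 genes for calcium entry or release, 14 were tested, 1 was lower at L6S1 and 0 were higher, 5 had an unadjusted p under 0.05, and the median log2 fold change was -0.27 (2 above and 12 below 0). The called gene was Itpr1, a receptor for inositol trisphosphate that releases calcium from the endoplasmic reticulum, with 5.11 ± 0.892 CPM at L6S1 and 8.53 ± 0.569 CPM at L345 (-0.74 ± 0.15, edgeR adjusted p = 0.022). Next by p came the voltage-gated calcium channel genes Cacna1a (P/Q-type, -0.59 ± 0.15, edgeR adjusted p = 0.0545), Cacna1c (L-type, -0.48 ± 0.14, 0.0699) and Cacna1b (N-type, -0.35 ± 0.11, 0.0948), which did not pass. For each of them 6 of 6 L6S1 libraries were under the same-sex L345 average. The share of all genes with such agreement was not counted.

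Of 8 genes for sodium channels and known partners of Slack, all 8 were tested and 0 were called, with 3 at an unadjusted p under 0.05 and a median of -0.37 (1 above and 7 below 0). Scn11a (NaV1.9) had 492 ± 69.8 CPM at L6S1 and 670 ± 123 CPM at L345 (-0.45 ± 0.15, edgeR adjusted p = 0.0935). Scn10a (NaV1.8) had 429 ± 66.5 CPM at L6S1 and 573 ± 96.0 CPM at L345 (-0.42 ± 0.14, edgeR adjusted p = 0.101), and Fmr1, whose product binds Slack, had 19.8 ± 6.10 CPM at L6S1 and 27.1 ± 4.55 CPM at L345 (-0.45 ± 0.20, 0.176). Of 13 genes for calmodulin and regulators of SK and IK channels, 13 were tested and 0 called, with 5 at an unadjusted p under 0.05 and a median of 0.03. Among them Csnk2b, a subunit of the casein kinase that phosphorylates channel-bound calmodulin, had 132 ± 21.3 CPM at L6S1 and 105 ± 1.15 CPM at L345 (0.33 ± 0.11, edgeR adjusted p = 0.0994). Ppp2r1a, a scaffold of the opposing phosphatase, stood at 0.38 ± 0.13 on the log2 scale (edgeR adjusted p = 0.109), and Csnk2a1 had -0.27 ± 0.10 (0.112).

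Of 6 further family and auxiliary genes only 2 were tested, and 0 were called, both with an unadjusted p under 0.05 and a median of 0.49. Kcnu1, the Slo3 channel known from sperm, had 4.73 ± 0.907 RPKM at L6S1 and 3.68 ± 0.122 RPKM at L345. It had 230 to 521 reads per library, with 0 other genes annotated across its locus (chromosome 8, 25849623 to 25937933). Per counted length it was above Kcnma1, which was not counted over its full longest transcript, in 7 of 12 libraries. Its log2 fold change was 0.40 ± 0.14 (edgeR adjusted p = 0.113), and 6 of 6 L6S1 libraries were above the same-sex L345 average. Lrrc55, an auxiliary gamma subunit of BK channels, had 2.62 ± 0.696 CPM at L6S1 and 1.74 ± 0.511 CPM at L345 (0.59 ± 0.24, edgeR adjusted p = 0.137). Kcnmb3, the remaining beta subunit gene, had 0 to 3 reads per library, Lrrc26 had 0 to 4, Lrrc52 had 0 to 7, and Lrrc38 had 0 in every library.

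The genes whose pattern over the 12 libraries came nearest to a member were found by the root mean square difference between log2 deviations from each gene's own mean, over 11666 genes of at least 2 CPM, as a description. For Kcnma1 they were Ahnak (0.124) and Kcnq5, an M-type potassium channel gene (0.139). Kcnmb1 came nearest to Slc22a18 (0.085) and Zfp954 (0.111), Kcnmb2 to the cannabinoid receptor gene Cnr1 (0.127) and Pcp4 (0.144), Kcnt1 to Map2k7 (0.0999) and Apc2 (0.109), and Kcnn1 to Dalrd3 (0.097) and Smox (0.0993). Kcnn2 came nearest to Arrdc4 (0.14) and Otub2 (0.146). The nearest genes to Kcnt2, Zfp654 (0.305) and Rbm26 (0.317), were farther off, and Kcnt2 itself varied most among the 10 (0.78 from its mean). The weakly expressed members came nearest to Tceal5 (0.177) and Usb1 (0.185) for Kcnmb4, Amotl1 (0.155) and Cetn4 (0.177) for Kcnn3, and Egln2 and Gpsm1 (0.206 each) for Kcnn4. Among the members themselves the closest pairs were Kcnn2 with Kcnt1 (0.234), Kcnn1 with Kcnt1 (0.259) and Kcnma1 with Kcnt1 (0.291), and the farthest was Kcnn4 with Kcnt2 (1.0). Levels of these genes share the depth and composition of their library.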

How the data were processed

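Libraries were amplified from 10 ng of RNA with a SMARTer kit and 12 PCR cycles, per the labels' protocols. The submitters' processing notes name Subread, featureCounts 1.4.5 and GRCm38.p2; the sources used here give no Subread version, annotation release or strand setting. For each library the authors deposited whole-number counts, CPM and RPKM per gene. The deposited CPM equals the count scaled by the table's total, and the deposited RPKM that CPM per kilobase of gene length, in 12 of 12 libraries (tolerance 1e-06). Symbols came from GENCODE M21 for 40254 genes (97.3%), and promoter sequences from RefSeq.

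Counts were tested with edgeR 4.0.16 (R 4.3.3): TMM, filterByExpr by group, a robust quasi-likelihood fit of 4 group means (8 residual degrees of freedom), all genes adjusted together. CPM of genes is TMM-scaled, marker sums use each library's own total, and RPKM was recomputed from counts. An L6S1 library counts as higher or lower against the L345 mean of its sex. The share of all genes with every L6S1 library on one side was not counted. Libraries of one group differed by a chi-square of 9.8 to 127.7 per degree of freedom, so none was a repeat. Each library is a pool of mice, and pools of different levels may share animals, so p-values measure the spread between pools. The floor covers counting error only, since reads carry no molecular identifiers. The code was checked on simulated counts.

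The members, gene lists and alternatives were chosen with earlier results of these data known. Named are all 10 members, every called gene of each pathway list with up to 3 more of its smallest p, every called marker gene, and the 2 nearest genes per member. The alternatives were DESeq2 1.42.0, limma-voom (limma 3.58.1, sample quality weights), upper-quartile or RLE scaling, no filter, a filter of 1 CPM in 6 libraries, a submission term, the first submission alone, no female L6S1 B and C, GC and length offsets, a replicate block, and each library left out. Ratios and shares were not tested.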

Additional observations from a re-analysis of the deposited data

Results flagged for a closer look

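The Kcnmb2 to Kcnma1 ratio of female L345 D, 3.45, stood apart from the other 5 L345 libraries, which lay between 1.57 and 2.02, with a gap that exceeded Dixon's critical value for 6 samples. This library came from the later submission and had the fewest long transcripts against short ones among the L345 libraries (-0.21, against 0.09 to 0.53). The Kcnt1 to Kcnma1 ratio of female L6S1 B, 1.68, likewise stood below the other 5 L6S1 libraries (2.88 to 3.43), and the 6 L345 libraries lay between 2.27 and 3.24. That library also had the lowest level of high-GC against low-GC genes of the 12 (-0.99), and its part in the ratio was not tested. Chance flags about 1 in 20 groups.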

How the results depend on the processing

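The 23 alternatives were set with earlier results of these data known. The count of members called for level, 0 as reported, became 1 with RLE scaling (2.58% of all genes called), the filter of 1 CPM in 6 libraries (2.88%) and without female L6S1 B and C (0.87%), 2 with upper-quartile scaling (3.57%) and GC and length offsets (3.99%), and 4 with DESeq2, limma-voom, no filter (3.15%) and the first submission alone (3.29%). It was 0 with the submission term and 0 to 6 with one library left out (6 without female L6S1 A, 4 without female L345 D, 2 without female L6S1 C). These counts go with 26.5%, 5.84% and 1.68% of all genes called in those 3 fits. In males the count became 1 with DESeq2, the first submission alone (1.26% of all genes) and without female L6S1 B and C (0.864%), 3 with limma-voom, and 0 to 1 with one library left out (1 without female L6S1 C, 0.386%). In females it became 1 with DESeq2 and with no filter (0.96%), and 0 to 3 with one left out (3 without female L6S1 A, 25.0%). Sex and interaction kept 0 members under every alternative that could be fitted. Letters shared between levels were not taken as pairs, since the labels do not tie them to shared mice and not every pair correlated above 0.1 (correlations of 0, 0.23 and 0.2 for male A, B and C, and 0.41 and 0.01 for female B and C). A replicate block gave 5 members for level (34.9% of all genes), 1 in males (0.883%) and 5 in females (31.7%), and it cannot be fitted for sex. Kcnma1, Kcnmb2, Kcnn1, Kcnn2, Kcnn4, Kcnt1 and Kcnt2 kept their sign in all 23. Kcnmb1 reversed to -0.17 and -0.15 (first submission; without female L6S1 B and C). Kcnmb4 reversed to -0.08, -0.01 and -0.17 (submission term; without female L6S1 B and C; offsets) and ran from -0.08 to 0.24 with one library left out. Kcnn3 reversed to -0.04 and -0.05 (limma-voom; first submission) and ran from -0.03 to 0.20. The causes were not tested. Across 12828 genes, Spearman's rho between level fold change and transcript length was -0.46, and -0.1 with the offsets. Counts under 40 per library limit Kcnmb4 and Kcnn3.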
